A study of Rattus norvegicus with 9 samples.

Results

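The genes described here are those that natural killer (NK) cells and cytotoxic T cells use to recognise and kill other cells. A list of 32 symbols was taken, and 31 of them had a line among the 22077 genes of the deposited table. The remaining symbol, Fasl (Fas ligand, the death ligand of killer cells), had no line. RefSeq gives Fasl as a synonym of Faslg, which has a line and is described beside the members but not counted among them. Of the 31 members, 28 had enough reads to be tested. Klrb1, Gzmc and Gzmf did not.

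Messenger RNA was sequenced from peripheral blood mononuclear cells, the lymphocytes and monocytes of blood, of wild-type Sprague-Dawley rats. In all, 3 libraries came from rats under normoxia (day 0), 3 from rats at day 28 of Sugen-Hypoxia and 3 from rats at day 56 of Sugen-Hypoxia. Sugen-Hypoxia combines a blocker of the receptor for vascular endothelial growth factor with a period of low oxygen, and is used in rats as a model of pulmonary arterial hypertension. The labels name no transgene and no age, and do not say whether a library is 1 animal or a pool, so the tests measure the spread between these libraries. The series studies the aryl hydrocarbon receptor in this disease, and the comparison of interest here is how the blood cells change over its course.

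Killer lymphocytes carry granules that hold perforin, which opens pores in a target cell, and granzymes, the proteases that enter through them. Whether the granules are released is set by a balance of activating and inhibitory receptors. In the rat, many of these belong to the killer cell lectin-like receptor (Klr) family. The transcription factors T-bet (Tbx21) and Eomes sustain the programme, and interleukin-2, interleukin-15 and interleukin-18 drive it through their receptors. No member is used by NK cells alone: cytotoxic T cells share most of them, so in these bulk libraries more cells of a type and more RNA per cell cannot be told apart.

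The libraries held 22148400 to 39947430 exon reads. They differed in 2 ways that touch all results. The 5 most abundant globin genes, which mark red cell RNA, took 43.0% to 56.3% of the exon reads in normoxia, 1.42% to 29.0% at day 28 and 40.5% to 44.4% at day 56. Normoxia replicate 1 stood apart from normoxia replicates 2 and 3 in its share of intron reads, which was 14.6% against 6.599% and 5.37%. That share also moved with the groups, at 24.9%, 21.4% and 14.2% at day 28 and 16.9%, 13.99% and 11.9% at day 56, so a fit with it as a covariate cannot fully tell it apart from the groups. The day 28 columns carry consecutive numbers of their own, whereas normoxia and day 56 share 2 runs of numbers, so day 28 cannot be told apart from whatever these numbers track. Levels below are in CPM, the exon reads of a gene over the total of its library, scaled by trimmed mean of M-values (TMM).

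At day 56 of Sugen-Hypoxia most members lay higher than in normoxia, whereas the direction at day 28 depended on the analysis. In the comparison of day 56 with normoxia, the log2 fold changes of 22 of the 28 tested members were positive, with a median of 0.55, against a median of -0.04 over all 12447 genes tested. Tbx21 and Il2rb were called higher by edgeR's quasi-likelihood test at a Benjamini-Hochberg adjusted p under 0.05. These 2 of 28 stand beside 7.12% of all genes called in this comparison and 3.42% called higher. Without adjustment 9 of the 28 members had p under 0.05, all of them higher, as 30.9% of all genes did in either direction. The count of members called was 6 of 29 without normoxia replicate 1, where 43.0% of all genes were called. It was 0 without normoxia replicate 2 or 3, day 28 replicate 3 or any day 56 replicate. Calls among all genes dropped in these runs too. Their share was 0.733% and 0.938% on omitting normoxia replicate 2 or 3, and 5.04% on omitting day 28 replicate 3. On omitting day 56 replicate 1, 2 or 3 it was 2.4%, 0.669% and 0.861%. For 11 members every day 56 library lay above every normoxia library, where 15.6% of all genes did so. Cd160 was the 1 member with every day 56 library below every normoxia library, as 14.9% of all genes were.

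At day 28 against normoxia, 9 members had a positive and 19 a negative log2 fold change, with a median of -0.24 against -0.01 over all genes. With the intron share of each library as a covariate 23 members were positive and 5 negative, with the globin share 17 were positive and 11 negative, and without normoxia replicate 3 the split was 14 to 14. At day 56 over normoxia 26 of 28 members were positive with the intron share and 22 with the globin share. At day 28 the quasi-likelihood test called 0 members, where it called 0.129% of all genes. Without adjustment 4 members had p under 0.05, as 28.8% of all genes did, and DESeq2 called 1 member, Cd244, where it called 13.6% of all genes. Without normoxia replicate 1 the quasi-likelihood test called 6 of 29 members tested and 45.2% of all genes. Cd244 was also the 1 member with all day 28 libraries above all normoxia libraries, which held for 11.4% of all genes, and Cd160 the 1 tested member with all of them below, which held for 11.8%.

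Between day 56 and day 28 the members lay higher at day 56 in 25 of 28 cases, with a median log2 fold change of 0.77 against -0.01 over all genes. The quasi-likelihood test again called 0 members, beside 0.546% of all genes. In this comparison 14 members had an unadjusted p under 0.05, a mark that 18.5% of all genes passed, and DESeq2 called 8 members beside 8.72% of all genes. The quasi-likelihood count was 3 of 29 without normoxia replicate 1, beside 7.89% of all genes, and 1 of 29 without day 28 replicate 3, beside 2.08%. For 12 members all day 56 libraries exceeded all day 28 libraries, where 17.8% of all genes did so, and for Ncr3 all lay below, where 17.4% of all genes did. The comparisons with normoxia share the normoxia libraries, and those with day 56 share the day 56 libraries, so their counts are not independent.

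**Figure D1:**
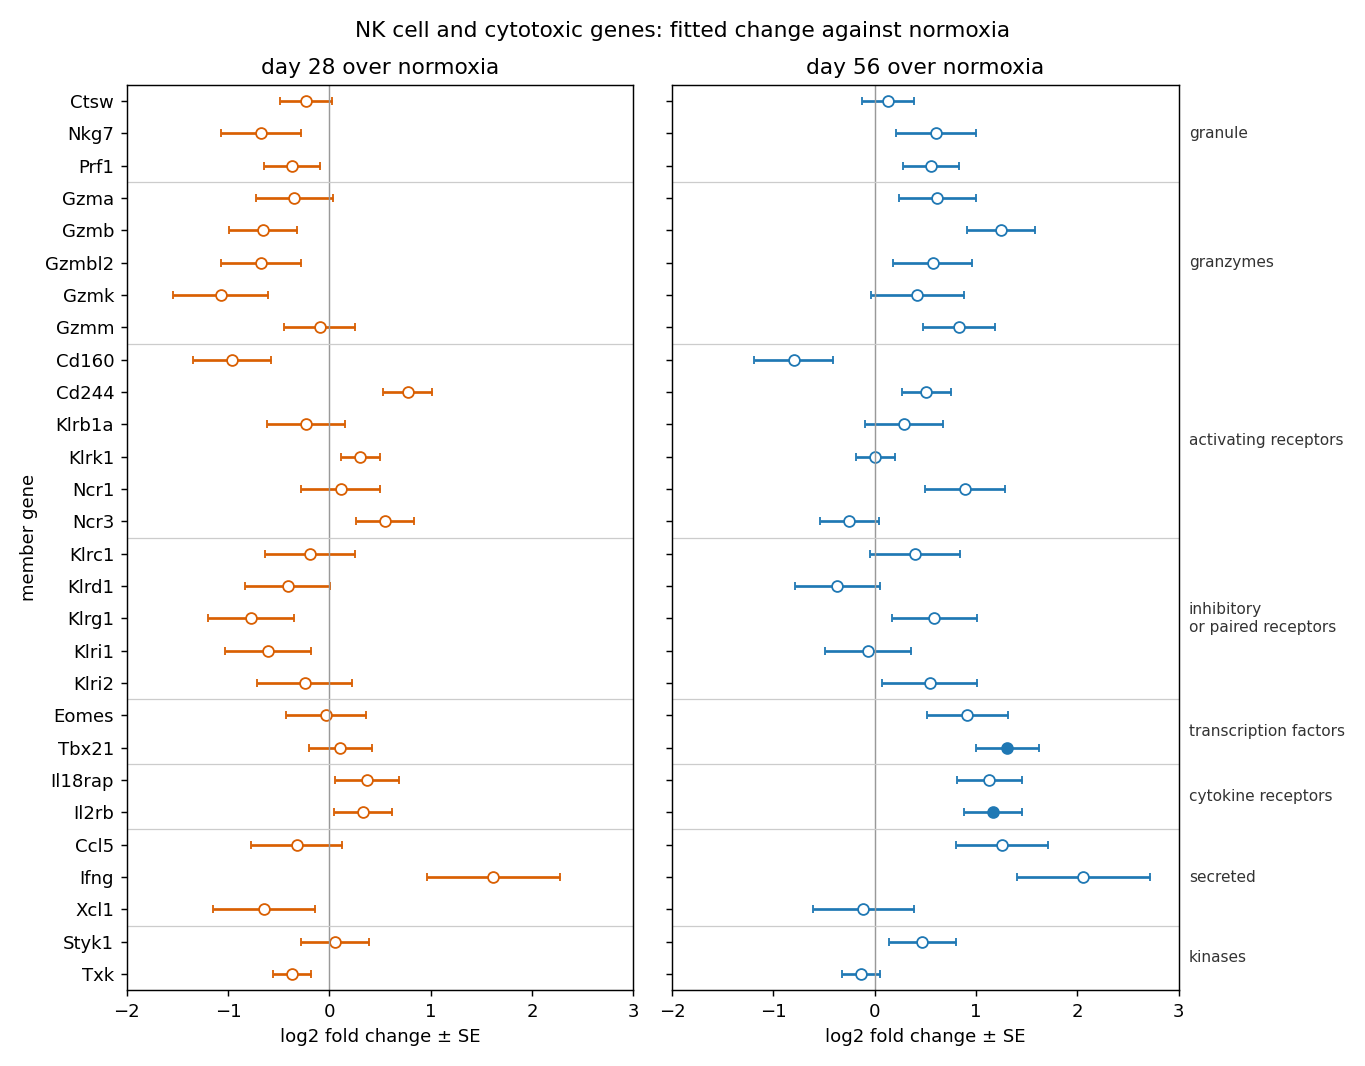
Log2 fold change with its standard error for the 28 tested members, at day 28 over normoxia (left) and day 56 over normoxia (right), grouped by role. Filled circles passed an adjusted p of 0.05: Tbx21 and Il2rb at day 56. The day 56 values lie mostly right of 0, with a median of 0.55, and the day 28 values mostly left of it, with a median of -0.24, a direction that turned for most members with the intron share as a covariate (23 of 28 positive).

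Tbx21 encodes T-bet, the transcription factor that switches on interferon-gamma and the granule genes in T and NK cells. It lies at chr10:85032798-85049331 of rn6 and was at 20.4, 12.3 and 19.3 CPM in normoxia, 12.8, 27.4 and 15.7 CPM at day 28 and 35.7, 40.3 and 52.5 CPM at day 56. All day 56 libraries lay above all others, and normoxia and day 28 overlapped. The mean was 42.8 ± 8.73 CPM at day 56 and 17.3 ± 4.38 CPM in normoxia (SD, n = 3 each), a log2 change of 1.31 (SE 0.31, adjusted p = 0.0407). Against day 28, where the mean was 18.6 ± 7.74 CPM, the change was 1.20 (SE 0.31, adjusted p = 0.0970). Day 28 over normoxia gave 0.11 (SE 0.31, adjusted p = 0.830).

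The call on Tbx21 was lost on leaving out any of 6 libraries, and with the intron share (adjusted p = 0.137) or the globin share (adjusted p = 0.0632) as a covariate. Its adjusted p was 0.0123 without normoxia replicate 1, and was above 0.05 without normoxia replicate 2 (1.11, adjusted p = 0.142), normoxia replicate 3 (1.39, adjusted p = 0.117), day 28 replicate 3 (1.31, adjusted p = 0.0528), or day 56 replicate 1 (1.43, adjusted p = 0.0701), 2 (1.35, adjusted p = 0.121) or 3 (1.13, adjusted p = 0.147). The log2 fold change stayed between 1.11 and 1.47 over all 20 alternative analyses.

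Eomes, the related T-box factor that NK cells need to mature, was at 9.75, 3.39 and 6.10 CPM in normoxia, 3.56, 8.12 and 7.10 CPM at day 28 and 10.8, 11.4 and 13.97 CPM at day 56. Every day 56 library exceeded every normoxia and day 28 library. The fitted log2 change was 0.91 (SE 0.40, adjusted p = 0.154) over normoxia, 0.95 (SE 0.39, adjusted p = 0.237) over day 28, and -0.033 (SE 0.40, adjusted p = 0.961) for day 28 over normoxia.

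Il2rb encodes the beta chain that the receptors for interleukin-2 and interleukin-15 share, through which interleukin-15 keeps NK cells alive. It lies at chr7:119701250-119716238 of rn6 and was at 154, 78.8 and 101 CPM in normoxia, 102, 184 and 134 CPM at day 28 and 227, 251 and 272 CPM at day 56. The day 56 libraries were again above all 6 others. The mean was 249.8 ± 22.8 CPM at day 56 and 111 ± 38.5 CPM in normoxia (SD, n = 3 each), a log2 change of 1.17 (SE 0.29, adjusted p = 0.0424). Over the day 28 mean of 139.6 ± 41.4 CPM it was 0.84 (SE 0.28, adjusted p = 0.159), and for day 28 over normoxia 0.33 (SE 0.28, adjusted p = 0.436).

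The Il2rb call held without normoxia replicate 1 (1.49, adjusted p = 0.00220) and without day 28 replicate 2 (1.17, adjusted p = 0.0452). It was lost without any of the other 7 libraries, with log2 fold changes and adjusted p as follows: normoxia replicate 2 (0.97, adjusted p = 0.153) and 3 (1.10, adjusted p = 0.152), day 28 replicate 1 (1.18, adjusted p = 0.0571) and 3 (1.17, adjusted p = 0.0587), and day 56 replicate 1 (1.24, adjusted p = 0.0845), 2 (1.17, adjusted p = 0.137) and 3 (1.10, adjusted p = 0.146). With only the 2 groups compared, or with the intron or globin share as a covariate, it was lost as well (adjusted p between 0.0646 and 0.144). Il18rap, the accessory chain of the interleukin-18 receptor, was at 25.7, 21.8 and 32.4 CPM in normoxia, 25.7, 50.4 and 26.6 CPM at day 28 and 38.9, 71.9 and 63.8 CPM at day 56. All day 56 libraries exceeded normoxia, and day 28 replicate 2 exceeded day 56 replicate 1. The log2 fold change over normoxia was 1.13 (SE 0.32, adjusted p = 0.0595), just short of the threshold.

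**Figure D2:**
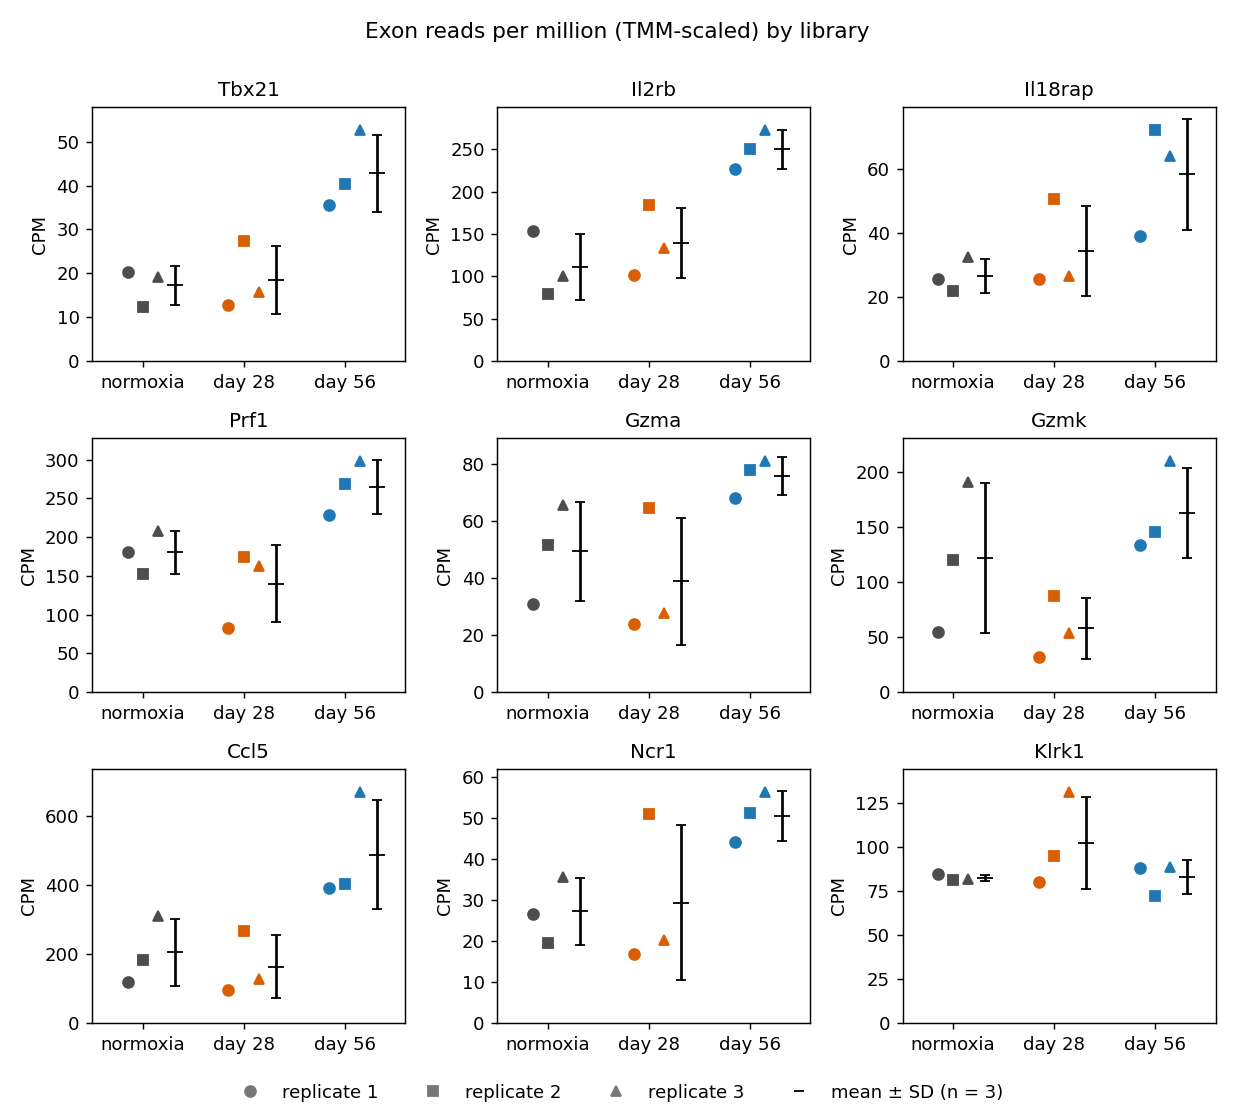
TMM-scaled CPM of exon reads (linear axes from 0) of 9 members in each of the 9 libraries, with the mean and SD of each group. Tbx21, Il2rb, Prf1, Gzma and Ccl5 have all day 56 libraries above all normoxia and day 28 libraries, whereas Klrk1 stays at 71.9 to 131 CPM with overlapping groups.

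The pore-former lay higher at day 56 without passing the test, whereas Nkg7 and Ctsw, described next, overlapped normoxia and were not called either. Prf1 (perforin) was at 181, 153 and 208 CPM in normoxia, 82.8, 174 and 163 CPM at day 28 and 229, 269 and 298 CPM at day 56. The day 56 libraries were above all others, with a log2 change of 0.56 (SE 0.28, adjusted p = 0.199) over normoxia and 0.92 (SE 0.28, adjusted p = 0.128) over day 28. Day 28 over normoxia was -0.37 (SE 0.28, adjusted p = 0.376).

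Nkg7, a granule membrane protein of NK cells and killer T cells, was at 51.1, 89.4 and 141 CPM in normoxia, 39.7, 86.2 and 50.4 CPM at day 28 and 109, 134 and 186 CPM at day 56. Day 56 overlapped normoxia, as normoxia replicate 3 exceeded day 56 replicates 1 and 2, but lay wholly above day 28. Its log2 fold change was 0.61 (SE 0.40, adjusted p = 0.316) over normoxia, 1.28 (SE 0.40, adjusted p = 0.137) over day 28 and -0.67 (SE 0.40, adjusted p = 0.271) for day 28 over normoxia. Ctsw (cathepsin W, a protease of killer lymphocytes) averaged 109 ± 37.6 CPM in normoxia, 93.2 ± 10.3 CPM at day 28 and 119.6 ± 17.3 CPM at day 56. Its log2 fold change at day 56 over normoxia was 0.13 (SE 0.25, adjusted p = 0.757).

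Among the granzymes, 5 of 7 could be tested, and all 5 had a negative log2 fold change at day 28 and a positive one at day 56 relative to normoxia. Their median was -0.65 at day 28 and 0.62 at day 56. With the intron share of each library as a covariate the day 28 values of all 5 turned positive. Gzma, the tryptase-like granzyme A, was at 31.1, 51.4 and 65.7 CPM in normoxia, 23.96, 64.6 and 27.9 CPM at day 28 and 68.3, 78.04 and 80.999 CPM at day 56. Its day 56 libraries exceeded all others, with log2 changes of 0.62 (SE 0.38, adjusted p = 0.289) over normoxia, 0.96 (SE 0.38, adjusted p = 0.214) over day 28 and -0.35 (SE 0.38, adjusted p = 0.544) for day 28 over normoxia.

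Gzmk (granzyme K, which lies beside Gzma on chromosome 2) was at 54.9, 119.7 and 191 CPM in normoxia, 31.9, 87.5 and 54.1 CPM at day 28 and 133, 146 and 209.8 CPM at day 56. Day 56 overlapped normoxia and lay wholly above day 28. For day 56 the log2 fold change was 1.49 (SE 0.47, adjusted p = 0.137) over day 28, 0.42 (SE 0.46, adjusted p = 0.561) over normoxia, and -1.07 (SE 0.46, adjusted p = 0.165) for day 28 over normoxia. Without normoxia replicate 1 the change for day 28 over normoxia was -1.39, adjusted p = 0.0231. Gzmm (granzyme M) averaged 82.5 ± 29.3 CPM in normoxia, 77.1 ± 33.3 CPM at day 28 and 147 ± 40.1 CPM at day 56.

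Gzmb, granzyme B, the protease that activates caspases in the target cell, came nearest to a call between day 56 and day 28. It was at 13.8, 12.1 and 20.1 CPM in normoxia, 4.81, 12.4 and 11.96 CPM at day 28 and 31.5, 39.7 and 37.6 CPM at day 56, with every day 56 library above every other. Its log2 fold change came to 1.90 (SE 0.34, adjusted p = 0.0510) over day 28, 1.25 (SE 0.34, adjusted p = 0.0547) over normoxia and -0.65 (SE 0.34, adjusted p = 0.220) for day 28 over normoxia. Its count is uncertain, since only 0.365% of its 4926 exon reads mapped uniquely, so reads of near-identical copies may be shared among them. The same holds for Gzmbl2 (22.0% unique).

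The granzyme B-like copies with unique sequence were read separately for that reason, and were named after their values were seen. Gzmbl3, at chr15:36111985-36114752 of rn6, had 7, 70 and 45 reads in normoxia, 9, 54 and 49 at day 28 and 266, 295 and 235 at day 56, all of them uniquely mapped. Gzmbl1, at chrX:123015479-123018444, had 2, 3 and 0 reads in normoxia, 0, 1 and 3 at day 28 and 19, 17 and 17 at day 56. In both genes the day 56 libraries lay above all others.

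Gzmbl1 passed the test over normoxia, with a log2 change of 3.11 (SE 0.76, adjusted p = 0.0419), and Gzmbl3 gave 2.40 (SE 0.75, adjusted p = 0.0748). The Gzmbl1 call, which rests on 5 reads in normoxia, was lost without normoxia replicate 2 or 3, day 28 replicate 2, or any day 56 replicate, with adjusted p between 0.0616 and 0.138, and when the intron share entered the fit. Over day 28 the changes were 3.25 (SE 0.77, adjusted p = 0.0896) for Gzmbl3 and 3.99 (SE 0.77, adjusted p = 0.0598) for Gzmbl1. Gzmbl2 averaged 15.99 ± 8.06 CPM in normoxia, 10.002 ± 3.69 CPM at day 28 and 23.7 ± 3.02 CPM at day 56, a log2 change of 0.57 (SE 0.39, adjusted p = 0.337) over normoxia. With its uniquely mapped reads alone the change was -0.086, adjusted p = 0.924, so its direction depended on how shared reads were counted.

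**Figure D3:**
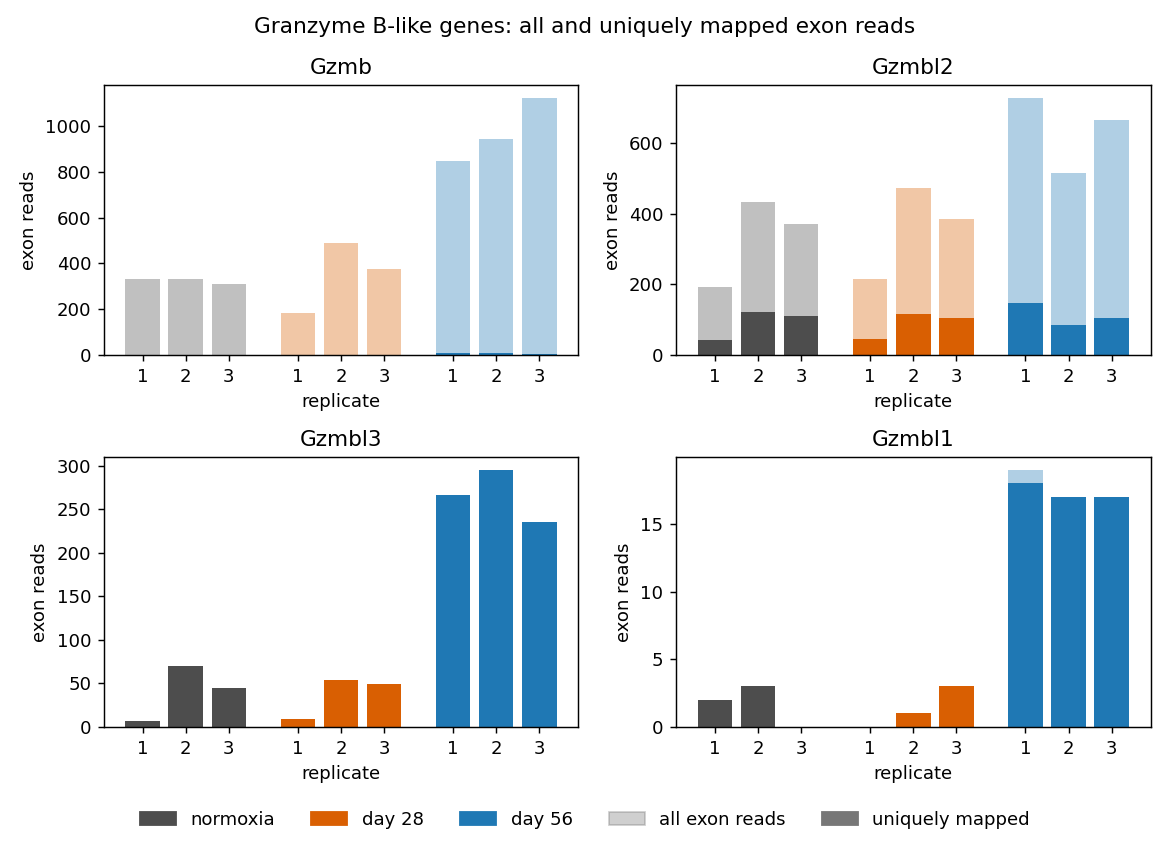
Exon reads per library for 4 granzyme B-like genes, with all reads (pale bars) and uniquely mapped reads (solid bars), not scaled for depth. Gzmb has 0 unique reads in the normoxia and day 28 libraries and 6, 10 and 2 at day 56, whereas nearly all reads of Gzmbl3 and Gzmbl1 are unique and their day 56 bars stand above the rest.

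The 2 rarest granzymes had too few reads for the main test. Gzmc had 6, 17 and 21 reads in normoxia, 0, 0 and 0 at day 28 and 0, 5 and 12 at day 56, none of them uniquely mapped. It was tested in some of the alternatives, and without normoxia replicate 1 it was called lower at day 28. At day 28 the 0 reads allow up to 0.0277 CPM over the 3 libraries, counting 3 reads as the limit and covering counting error only. Gzmf had 2 reads in day 56 replicate 1 and 0 in the other 8 libraries.

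Of the 6 activating receptors tested, 4 had a positive log2 fold change at day 56 over normoxia, with a median of 0.15. Ncr1 (NKp46), a receptor nearly restricted to NK cells and related innate lymphocytes, was at 26.7, 19.5 and 35.7 CPM in normoxia, 16.8, 51.1 and 20.3 CPM at day 28 and 44.1, 51.3 and 56.4 CPM at day 56. All day 56 libraries exceeded normoxia, but day 28 replicate 2 was as high as they were. The fit gave a log2 change of 0.89 (SE 0.39, adjusted p = 0.159) over normoxia, 0.78 (SE 0.39, adjusted p = 0.332) over day 28 and 0.11 (SE 0.39, adjusted p = 0.862) for day 28 over normoxia.

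Klrk1 (NKG2D), which binds stress ligands on target cells, was at 84.4, 81.2 and 81.8 CPM in normoxia, 80.1, 94.9 and 131 CPM at day 28 and 87.8, 71.9 and 88.7 CPM at day 56. It had the lowest coefficient of variation of the 28 tested members in normoxia, and the groups overlapped. Its log2 fold change at day 56 was 0.006 (SE 0.20, adjusted p = 0.988) over normoxia, -0.30 (SE 0.20, adjusted p = 0.468) over day 28 and 0.31 (SE 0.20, adjusted p = 0.304) for day 28 over normoxia. Klrb1a, of the NKR-P1 receptor family, was at 50.6, 74.4 and 109.9 CPM in normoxia, 41.3, 109.9 and 48.96 CPM at day 28 and 83.6, 95.1 and 108 CPM at day 56. Its groups overlapped too, with log2 changes of 0.29 (SE 0.38, adjusted p = 0.636) over normoxia, 0.52 (SE 0.38, adjusted p = 0.536) over day 28 and -0.23 (SE 0.38, adjusted p = 0.699) for day 28 over normoxia.

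Cd244 (2B4), a receptor for the surface protein CD48, was the member nearest to a call at day 28. It was at 36.7, 20.8 and 27.8 CPM in normoxia, 42.3, 62.5 and 40.8 CPM at day 28 and 34.4, 44.1 and 43.03 CPM at day 56, so that each day 28 library exceeded each normoxia library. Its change on the log2 scale was 0.77 (SE 0.24, adjusted p = 0.107) at day 28 and 0.51 (SE 0.24, adjusted p = 0.186) at day 56 over normoxia. Without normoxia replicate 1 Cd244 passed the test at both days (1.03, adjusted p = 0.00807 at day 28 and 0.76, adjusted p = 0.0284 at day 56).

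Cd160, a receptor for the herpesvirus entry mediator and class I molecules, ran the other way at a low level. It was at 0.541, 0.994 and 0.714 CPM in normoxia, 0.452, 0.406 and 0.288 CPM at day 28 and 0.448, 0.336 and 0.503 CPM at day 56, with all Sugen-Hypoxia libraries below all normoxia libraries. The fitted log2 change was -0.96 (SE 0.38, adjusted p = 0.146) at day 28 and -0.80 (SE 0.39, adjusted p = 0.193) at day 56. Ncr3 (NKp30) averaged 3.49 ± 0.647 CPM at day 56 and 6.09 ± 2.17 CPM at day 28, the 1 member whose day 56 libraries all lay below day 28, with a log2 change of -0.80 (SE 0.29, adjusted p = 0.181). Klrb1 had 0 to 2 reads in each library.

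Of the inhibitory or paired receptors, 5 were tested, and all 5 had a negative log2 fold change at day 28 over normoxia, between -0.78 and -0.19. These directions were not stable: with the intron share as a covariate Klrd1 was at 0.58 and Klrg1 at 0.43, with the globin share Klrd1 was at 0.12, and leaving out 1 library gave Klrc1 a range of -0.90 to 0.13. At day 56 the signs were mixed, with 3 of 5 positive. Klrd1 (CD94), the chain that pairs with NKG2 receptors, was at 27.7, 73.6 and 89.9 CPM in normoxia, 33.7, 53.6 and 56.1 CPM at day 28 and 70.6, 36.2 and 41.1 CPM at day 56. Its groups overlapped throughout, with log2 changes of -0.37 (SE 0.42, adjusted p = 0.576) at day 56 over normoxia, 0.046 (SE 0.42, adjusted p = 0.972) over day 28 and -0.41 (SE 0.42, adjusted p = 0.507) for day 28 over normoxia.

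Klrc1 (NKG2A), the inhibitory partner of CD94, was at 2.17, 2.02 and 3.31 CPM in normoxia, 1.22, 3.83 and 1.44 CPM at day 28 and 3.62, 2.44 and 3.72 CPM at day 56, again with overlap. The log2 fold change was 0.39 (SE 0.45, adjusted p = 0.574) at day 56 over normoxia, 0.59 (SE 0.44, adjusted p = 0.544) over day 28 and -0.19 (SE 0.45, adjusted p = 0.786) for day 28 over normoxia. Klrg1, an inhibitory receptor for cadherins found on mature killer cells, was at 6.33, 11.1 and 18.5 CPM in normoxia, 3.75, 10.3 and 6.81 CPM at day 28 and 14.8, 17.7 and 21.1 CPM at day 56. Its day 56 libraries overlapped normoxia and exceeded every day 28 library. The change was 1.36 (SE 0.43, adjusted p = 0.137) over day 28, 0.59 (SE 0.42, adjusted p = 0.361) over normoxia and -0.78 (SE 0.42, adjusted p = 0.241) for day 28 over normoxia. Klri1 and Klri2 averaged 12.01 ± 6.62 and 7.02 ± 3.87 CPM in normoxia, 7.83 ± 3.79 and 5.88 ± 3.05 CPM at day 28, and 11.4 ± 1.29 and 10.1 ± 2.20 CPM at day 56.

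Among the secreted members, Ccl5 (RANTES), a chemokine that T and NK cells release with their granules, had the highest level. It was at 119, 184 and 311 CPM in normoxia, 95.7, 268 and 127 CPM at day 28 and 392, 404 and 670.4 CPM at day 56, and every day 56 library exceeded all others. Its log2 fold change came to 1.26 (SE 0.46, adjusted p = 0.105) over normoxia, 1.58 (SE 0.46, adjusted p = 0.122) over day 28 and -0.32 (SE 0.45, adjusted p = 0.634) for day 28 over normoxia.

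Ifng (interferon-gamma), the main cytokine of activated NK cells, had few reads. There were 2, 13 and 4 reads in normoxia, 31, 55 and 11 at day 28 and 21, 30 and 44 at day 56, or 0.0833, 0.478 and 0.260 CPM in normoxia, 0.824, 1.40 and 0.352 CPM at day 28 and 0.783, 1.26 and 1.47 CPM at day 56. Day 56 lay above normoxia in all libraries, and day 28 replicate 3 fell below normoxia replicate 2. Its log2 fold changes were the highest among the members at both days, 1.62 (SE 0.65, adjusted p = 0.149) at day 28 and 2.06 (SE 0.66, adjusted p = 0.0788) at day 56 over normoxia, and neither was called. Day 56 over day 28 gave 0.44 (SE 0.57, adjusted p = 0.756).

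Xcl1 (lymphotactin), which attracts cross-presenting dendritic cells, was at 1.87, 4.01 and 5.71 CPM in normoxia, 2.31, 3.99 and 1.02 CPM at day 28 and 3.02, 3.74 and 3.89 CPM at day 56. The groups overlapped, with log2 changes of -0.11 (SE 0.50, adjusted p = 0.896) at day 56 over normoxia, 0.53 (SE 0.50, adjusted p = 0.638) over day 28 and -0.65 (SE 0.50, adjusted p = 0.392) for day 28 over normoxia.

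Faslg, the line that RefSeq's synonym assigns to Fas ligand, lies at chr13:79698444-79705705 of rn6 and was at 7.83, 5.96 and 8.44 CPM in normoxia, 5.48, 8.10 and 9.69 CPM at day 28 and 19.5, 18.4 and 24.3 CPM at day 56. All day 56 libraries stood above all 6 others, which overlapped among themselves. Faslg averaged 7.41 ± 1.29 CPM in normoxia, 7.76 ± 2.13 CPM at day 28 and 20.7 ± 3.14 CPM at day 56 (SD, n = 3 each). It was called over normoxia, with a log2 change of 1.49 (SE 0.25, adjusted p = 0.0138), and over day 28, with 1.42 (SE 0.24, adjusted p = 0.0423), while day 28 over normoxia gave 0.068 (SE 0.24, adjusted p = 0.863). Over normoxia Faslg missed the threshold on leaving out normoxia replicate 2 (1.35, adjusted p = 0.0673), day 56 replicate 2 (1.57, adjusted p = 0.0543) or day 56 replicate 3 (1.36, adjusted p = 0.0698). Over day 28 it held without normoxia replicate 1 or day 28 replicate 3, and was lost without any of the other 7 libraries, with adjusted p between 0.0526 and 0.192. It was also lost with the intron share (1.23, adjusted p = 0.0952) or the globin share (0.92, adjusted p = 0.593) as a covariate.

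Neither kinase was called, and their groups overlapped. Txk, a Tec-family kinase of T and NK cells, averaged 67.5 ± 7.93 CPM in normoxia, 52.3 ± 11.1 CPM at day 28 and 61.5 ± 6.29 CPM at day 56. Styk1 averaged 1.27 ± 0.273 CPM in normoxia, 1.32 ± 0.446 CPM at day 28 and 1.77 ± 0.256 CPM at day 56.

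Per length, in the deposited RPKM, which divide exon reads by exon length and library depth, Ccl5 had the highest level of all members in each group, with 223 ± 61.7 RPKM in normoxia, 320.1 ± 191 at day 28 and 654 ± 194 at day 56. Gzmk, Nkg7, Gzmm, Ctsw and Prf1 followed in normoxia, at 63.6 ± 24.2, 62.9 ± 18.0, 53.2 ± 7.90, 45.3 ± 6.74 and 45.2 ± 10.9 RPKM, and these neighbours did not differ beyond their SDs. At day 56 the next were Nkg7, Gzmm and Gzmk, at 118 ± 30.1, 115 ± 29.0 and 107 ± 24.4 RPKM, which overlapped as well. The RPKM values are not corrected for the globin share and were used only to order genes within a group.

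Promoters were read for letters that known regulators of killer genes prefer. RefSeq promoter sequence on GRCr8 was at hand for 22 of the 32 symbols and for Faslg. Il2rb was not among them. The others, Cd244, Eomes and Ifng among them, were searched but are not shown. Those of Tbx21, Faslg, Gzmb, Prf1 and Gzmk are shown 5′ to 3′ as the 250 bases before the start site on the gene's strand, with matches on either strand in capitals:

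Tbx21 promoter, GRCr8 chr10:82595254-82595503, minus strand: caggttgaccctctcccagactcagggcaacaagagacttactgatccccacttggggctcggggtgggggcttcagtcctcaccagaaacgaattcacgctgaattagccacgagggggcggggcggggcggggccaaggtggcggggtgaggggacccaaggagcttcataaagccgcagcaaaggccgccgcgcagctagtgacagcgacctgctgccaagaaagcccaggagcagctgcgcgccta

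Faslg promoter, GRCr8 chr13:76695504-76695753, minus strand: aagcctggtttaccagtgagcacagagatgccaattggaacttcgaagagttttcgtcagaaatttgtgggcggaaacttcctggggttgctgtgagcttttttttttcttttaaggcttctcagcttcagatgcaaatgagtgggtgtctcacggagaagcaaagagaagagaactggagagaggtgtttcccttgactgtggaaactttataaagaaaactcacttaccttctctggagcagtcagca

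Gzmb promoter, GRCr8 chr15:34462470-34462719, minus strand: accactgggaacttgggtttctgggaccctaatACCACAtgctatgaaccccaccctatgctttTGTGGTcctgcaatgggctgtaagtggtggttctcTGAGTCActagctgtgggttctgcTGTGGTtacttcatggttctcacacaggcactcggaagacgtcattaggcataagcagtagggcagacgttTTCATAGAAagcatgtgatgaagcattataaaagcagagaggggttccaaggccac

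Prf1 promoter, GRCr8 chr20:29788790-29789039, plus strand: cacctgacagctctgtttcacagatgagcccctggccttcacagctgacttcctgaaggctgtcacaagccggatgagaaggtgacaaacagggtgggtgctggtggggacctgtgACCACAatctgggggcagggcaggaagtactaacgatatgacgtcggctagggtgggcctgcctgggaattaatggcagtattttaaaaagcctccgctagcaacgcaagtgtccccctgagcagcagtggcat

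Gzmk promoter, GRCr8 chr2:46582016-46582265, minus strand: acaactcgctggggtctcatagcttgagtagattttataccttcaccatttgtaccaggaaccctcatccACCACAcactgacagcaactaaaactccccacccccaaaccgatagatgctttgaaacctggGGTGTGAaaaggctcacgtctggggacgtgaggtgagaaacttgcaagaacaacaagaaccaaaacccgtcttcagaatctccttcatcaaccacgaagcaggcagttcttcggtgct

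The capitals mark TGTGGT (the core that RUNX factors bind), GGTGTGA (T-box), TTCNNNGAA (STAT) and TGANTCA (AP-1). TGTGGT on either strand was present in 14 of the 22 member promoters (63.6%), against 14.1% of 27457 rat promoters of the same length. The granzyme genes are copies of one another, so their promoters are not independent, and Gzmb, Gzmc and Gzmf each held 3 matches. Gzma, Gzmk and Gzmm held 1 each, as did Nkg7, Prf1, Eomes, Klrk1, Klrc1, Klri2, Ncr3 and Xcl1. The T-box letters stood in 2 of 22, those of Gzmk and Gzmm, against 3.19% of all promoters. The STAT letters stood in 3 of 22 (7.52% of all) and the AP-1 letters in 2 of 22 (6.36% of all). The Tbx21 and Faslg windows held none of these strings. In the Gzmb window the AP-1 letters lie 151 to 145 bases before the start, between RUNX matches at 186 to 181 and 127 to 122 bases. A match is a string of letters and does not show that a factor binds.

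Within each group, the same library was highest or lowest for most members. Day 28 replicate 2 was the highest of its group for 22 of the 28 tested members and 38.3% of all genes, and day 28 replicate 1 was the lowest for 21 members and 27.2% of all genes. Normoxia replicate 3 was highest for 20 members and 27.3% of all genes, and replicate 1 lowest for 17 and 43.5%. Day 56 replicate 3 was highest for 20 members and 36.6% of all genes, and replicate 1 lowest for 20 and 37.9%. The median coefficient of variation of the members was 34.9% in normoxia, 41.5% at day 28 and 14.4% at day 56, against 27.5%, 15.01% and 12.8% for all genes. In normoxia the difference between replicates 2 and 3 and replicate 1 went with gene length. Members with under 1200 bases of exon sequence, 11 in number, were higher in replicates 2 and 3 by a median log2 of 1.05, and the 17 longer members by 0.08. Across genes the rank correlation with exon length was -0.49 for the 28 members and -0.40 for all 12447 genes, which share the same libraries. The part of this length pattern in the results was not tested.

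Genes that work with the members were read from 7 further lists, and 97 of their genes had a line. These lists were chosen with earlier results of these data known, so their share of calls is a description only. At day 56 over normoxia 8 of the 94 tested rose and 4 fell by the quasi-likelihood test, or 12.8% against 7.12% of all genes. Without adjustment 34 had p under 0.05, where 30.9% of all genes did, and DESeq2 called 24, where it called 19.6% of all genes. By the quasi-likelihood test, the transcription factors of killer lymphocytes had 4 of 13 called higher. Prdm1 (Blimp-1), a regulator of terminal differentiation, was at 41.1 ± 7.86 CPM at day 56 and 8.35 ± 2.19 CPM in normoxia, a log2 change of 2.30 (SE 0.28, adjusted p = 0.00473). Bhlhe40 changed by 2.15 (SE 0.36, adjusted p = 0.0147), Nfil3, which NK cells need to develop, by 2.07 (SE 0.42, adjusted p = 0.0249), and Runx3, a RUNX factor of CD8 T and NK cells, by 1.54 (SE 0.30, adjusted p = 0.0234). Prdm1 was also the 1 listed gene called over day 28, by 1.67 (SE 0.27, adjusted p = 0.0330), a call lost in 7 of 19 alternatives. Prdm1, Bhlhe40 and Nfil3 are also expressed by other leukocytes.

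Of 5 tested effectors, Ccl4 and Ccl3, chemokines that NK cells and myeloid cells both make, rose by 3.11 (SE 0.56, adjusted p = 0.0183) and 2.46 (SE 0.56, adjusted p = 0.0348) over normoxia. These were the only 2 of the 5 with a positive log2 fold change, and the median of the 5 was -0.17. Without adjustment 4 of the 5 had p under 0.05, and DESeq2 called 4. At day 28 Ccl4 and Ccl3 averaged 35.7 ± 25.9 and 123 ± 80.7 CPM, against 15.3 ± 7.43 and 34.7 ± 16.6 CPM in normoxia. Of 18 tested further receptors, Lag3, an inhibitory receptor of activated lymphocytes, rose by 1.23 (SE 0.24, adjusted p = 0.0223). Klra22, of the Ly49 family, fell, with -1.85 (SE 0.43, adjusted p = 0.0369), and so did Cd48, the ligand of Cd244, with -1.20 (SE 0.28, adjusted p = 0.0380). Among 12 homing genes S1pr1, the receptor for egress from lymph nodes, rose by 1.12 (SE 0.28, adjusted p = 0.0435). Among 14 genes of cytokine signalling only Il18, the cytokine for the Il18rap receptor, was called, and it fell, with -2.48 (SE 0.46, adjusted p = 0.0198). Over 20 alternatives the call was lost in 13 for Cd48, 11 for S1pr1, 9 for Klra22, 7 each for Runx3, Lag3 and Ccl3, 6 each for Nfil3 and Il18, 5 for Ccl4, 4 for Bhlhe40 and 0 for Prdm1. In the machinery of the granule 0 of 13 tested genes were called by the quasi-likelihood test, 2 had an unadjusted p under 0.05, where 30.9% of all genes did, and DESeq2 called 1, where it called 19.6%. Of the receptor adaptors and kinases 0 of 19 were called, 4 had an unadjusted p under 0.05, and DESeq2 called 0. At day 28 over normoxia 0 of the 94 genes were called, 28 had an unadjusted p under 0.05, where 28.8% of all genes did, and DESeq2 called 13, where it called 13.6% of all genes.

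The summed level of the 31 members was 1106, 1314 and 1862 CPM in normoxia, 849, 1651 and 1185 CPM at day 28 and 1956, 2121 and 2700 CPM at day 56. All day 56 libraries lay above all others, and day 28 overlapped normoxia. Abundant genes weigh most in this sum. Ccl5 alone averaged 205 CPM in normoxia and 489 CPM at day 56, where the sums averaged 1427 and 2259 CPM. Taken singly, 11 of the 28 tested members had every day 56 library above every normoxia library. Markers of other blood cells were summed in the same way. The 12 T cell markers summed to 1337 to 1668 CPM in normoxia, 969 to 1766 at day 28 and 1466 to 1832 at day 56, and their defining gene Cd3e was at 212, 292 and 281 CPM in normoxia, 204, 139 and 251 at day 28 and 228, 211 and 276 at day 56. Of the 12, Cd28 alone was called at day 56 over normoxia. Cd8a and Cd8b, the 2 markers of CD8 T cells, summed to 172 to 201 CPM in normoxia, 202 to 357 at day 28 and 219.8 to 269.5 at day 56. Cd8a alone was at 183, 199.6 and 216 CPM at day 56 and 131, 138 and 145 CPM in normoxia, so those libraries did not overlap. Only 1 of the 2 genes had a positive log2 fold change at day 56 over normoxia, so Cd8b did not rise with Cd8a. Of the 2, 0 were called.

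Divided by the T cell markers, the members stood at 0.663, 0.908 and 1.39 in normoxia, 0.597, 1.70 and 0.671 at day 28, and 1.16, 1.45 and 1.47 at day 56, so by this ratio normoxia replicate 3 lay within the day 56 range. The same held on dividing by Cd8a and Cd8b, with 6.42, 7.05 and 9.26 in normoxia and 8.90, 8.80 and 10.02 at day 56. Divided by the B cell markers, the members stood at 0.732 to 1.52 in normoxia and 2.22 to 5.07 at day 56. With the monocyte markers the ratios were 0.368 to 0.480 and 0.707 to 1.14. Normoxia and day 56 did not overlap in these last ratios. The B cell markers summed to 532 to 884 CPM at day 56 and 1066 to 1794 in normoxia, with Cd79b the 1 called, by -1.60 (SE 0.33, adjusted p = 0.0257). The monocyte markers summed to 2671 to 5058 CPM in normoxia, 3529 to 11295 at day 28 and 1979 to 2999 at day 56. Their highest sum was in day 28 replicate 2, which also had the highest member sum of the 3 day 28 libraries. The erythroid markers summed to 3266 to 8475 CPM in normoxia, 85.6 to 1957 at day 28 and 3717 to 4268 at day 56. The defining markers Cd3e, Cd8a, Cd14, Alas2, Pf4, Ms4a2 and Siglech were not at 0 in any library. The part of cell composition in the members' levels was not tested.

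**Figure D4:**
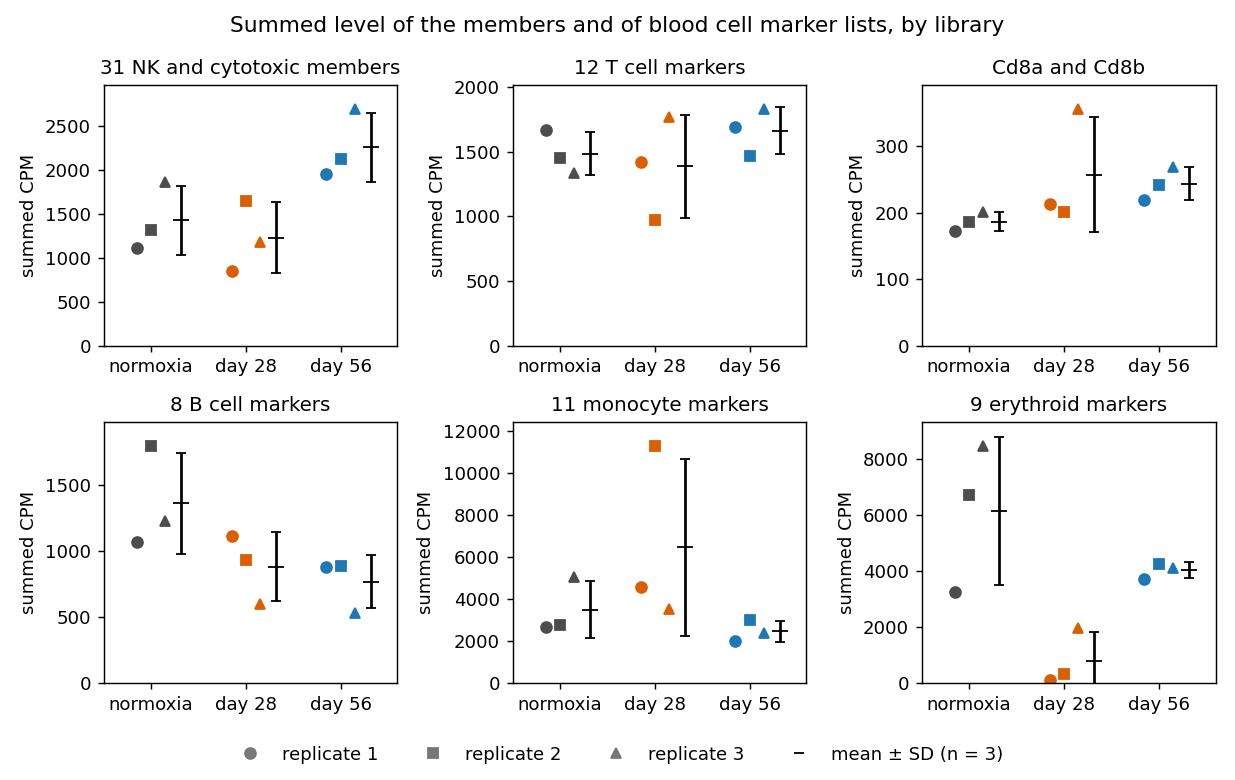
Summed TMM-scaled CPM of the 31 members and of 5 marker lists in each library, with the mean and SD of each group (linear axes from 0). The sum of the members, in which abundant genes such as Ccl5 weigh most, stands at 1956 to 2700 CPM at day 56, above all other libraries. The T cell markers overlap between groups, and the monocyte markers peak at 11295 CPM in day 28 replicate 2.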

How the data were processed

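The authors deposited 1 table of read counts per gene for all samples, with rn6 as the genome build and FastQC as the tool named in the submitters' processing notes. No source used here names the aligner or the counter. Per the file headers it holds exon read counts, uniquely mapped exon read counts (listed under the type of expected counts, because broken lines of the deposited table put other values in those columns, and whole on every intact line), gene read counts and RPKM, besides the exon length, another value per gene. Of 22085 lines, 8 were broken and left out, and 90 value columns were not used. Exon counts of all 9 libraries were fitted together with edgeR 4.0.16 (R 4.3.3, TMM factors, filterByExpr, robust quasi-likelihood F-test) over 12447 genes. P-values were adjusted by Benjamini-Hochberg, with 0.05 as the threshold. Log2 fold changes come with SEs from the same fit. The fit was tested on data simulated with the same dispersion for all genes and no outlying library. That setting does not cover the spread between the libraries here. Replicate numbers come from the labels. They were not taken as pairs, since no label links them. Alternatives were other scaling (RLE, upper quartile), globin genes left out, no filter, unique reads, 2 groups only, covariates, DESeq2 1.42.0, a replicate block, each library left out and, added after seeing the data, a block for column numbers. Members called in a comparison, and 18 members fixed by name, were given in full. The members and lists were chosen with earlier results of these data known. Single values cover counting error and the spread of 3 libraries. Results for a few genes of the further lists are not reported here.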

Additional observations from a re-analysis of the deposited data

Results flagged for a closer look

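Faslg, the line given for Fas ligand, differed between the 2 Sugen-Hypoxia days by a test of the difference itself. Its log2 fold change of day 56 over day 28 was 1.42 (SE 0.24, adjusted p = 0.0423), with 19.5, 18.4 and 24.3 CPM at day 56 and 5.48, 8.10 and 9.69 CPM at day 28. The call was lost in 9 of 19 alternatives: 7 that each left out 1 library, the intron share as a covariate (1.23, adjusted p = 0.0952) and the globin share as a covariate (0.92, adjusted p = 0.593). The day 28 columns have their own run of numbers, so day and run cannot be told apart in this comparison.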

How the results depend on the processing

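Counts of members called are given with the share of all genes called. At day 56 over normoxia the count was 2 with RLE (6.87%) or upper-quartile scaling (6.95%), with globin genes left out (6.83%) and with uniquely mapped reads (7.43%). It was 2 with only the 2 groups (Gzmb in place of Il2rb, 2.89%) and 3 without a filter (Gzmb added, 4.88%). With the replicate block (4.34%) or the intron share as a covariate (1.11%) it was 0, and with the globin share 1 (Gzmb, 4.04%). It was 6 with DESeq2 (2437 of 12447 genes in all, 19.6%) or with column runs as a block (787 of 12055, 6.53%). Leaving out 1 library gave 0 to 6, beside 0.669% to 43.0% of all genes. The 6 (Cd244, Eomes, Gzmb, Il18rap, Il2rb and Tbx21) were reached without normoxia replicate 1, where 5453 of 12694 genes were called. At day 28 over normoxia the count was 1 with DESeq2 (13.6%) and 0 to 6 with 1 library left out (0.0158% to 45.2%). The 6 again came without normoxia replicate 1, with 5 lower (Cd160, Ctsw, Gzmbl2, Gzmc and Gzmk) and Cd244 higher, beside 5732 genes in all. At day 56 over day 28 it was 1 (Gzmb) with upper-quartile scaling (0.643%), without a filter (0.519%), with only the 2 groups (4.8%) or with the replicate block (1.49%). It was 8 with DESeq2 (8.72%). Leaving out 1 library gave 0 to 3, beside 0.0236% to 7.89% of all genes (3 without normoxia replicate 1, 1 without day 28 replicate 3). The cause of these changes was not tested.

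The replicate block rests on numbers that no label ties to shared animals. Correlations of same-numbered libraries ran from -0.15 to 0.17, and those of differently numbered libraries from -0.22 to 0.26. These ranges are alike, so they cannot decide whether the numbers pair the samples. Under the block 540 genes in all were called at day 56 over normoxia, against 886 without it.

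Of 1388 values for 24 genes under 20 alternatives, 1249 kept direction and side of the threshold, 40 lost and 48 gained a call, and 51 changed sign. No value with a call changed sign. Once the intron share entered as a covariate, log2 fold changes at day 28 over normoxia became positive for Prf1 (0.069), Gzma (0.26), Gzmb (0.00534), Gzmk (0.36), Nkg7 (0.40), Ccl5 (0.67), Klrd1 (0.58), Klrb1a (0.41), Klrg1 (0.43), Gzmm (0.65), Gzmbl2 (0.50) and Gzmbl3 (1.70). At day 56 they became 0.23 for Klrd1 and 0.047 for Xcl1 over normoxia, and -0.36 for Klrd1 over day 28. With the globin share they became, at day 28, 0.23 for Prf1, 0.15 for Gzmb, 0.12 for Klrd1, 0.47 for Eomes, 0.036 for Gzmm, 0.088 for Gzmbl2, 0.95 for Gzmbl1 and 0.67 for Gzmbl3, and -0.44 for Klrd1 at day 56 over day 28. At day 56 over normoxia Gzmbl2 was -0.086 with unique reads, Klrk1 was -0.00211 with the replicate block, and Xcl1 was 0.0102 with the column block.

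With 1 library left out, sign changes at day 28 over normoxia lay in the ranges -0.35 to 0.45 for Eomes, -0.55 to 0.42 for Ncr1, -0.28 to 0.35 for Tbx21, -0.12 to 0.30 for Faslg, -0.88 to 0.11 for Ccl5, -0.90 to 0.13 for Klrc1, -0.79 to 0.091 for Klrb1a, -0.51 to 0.19 for Gzmm and -0.021 to 0.57 for Il18rap. At day 56 over normoxia they were -0.047 to 0.10 for Klrk1 and -0.43 to 0.28 for Xcl1, and over day 28 -0.30 to 0.23 for Klrd1. Gzmb has almost no unique reads and dropped out of the fit on them.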
